A study of Mus musculus with 32 samples.

Results

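The comparison described here is between wild-type embryos of 2 genetic backgrounds in the cerebral cortex at E15.5, where E stands for embryonic day. Its members are the 9 libraries labelled wild type, E15.5 and cortex, of 32 libraries in the series: 5 from C57BL/6 embryos and 4 from embryos of a mixed FVBxBALB/c background. The wider study measured RNA after loss of Kat6b on C57BL/6 and after gain of Kat6b on FVBxBALB/c, and each of these wild-type groups was the control of one of those designs. No embryo used in the comparison carried a Kat6b mutation or transgene. Each library was made from the cortex of 1 embryo. The C57BL/6 embryos came from 5 litters and were sequenced in batch 2, whereas the FVBxBALB/c embryos were sequenced in batch 1 and their litters are not given in the labels. Background and sequencing batch therefore change together in every comparison below and cannot be told apart. For the C57BL/6 substrain, and for the cross and generation behind the mixed background, nothing is given in the sources used here.

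Inbred mouse strains carry fixed alleles at nearly all loci, so that a gene can differ between strains in its promoter, its coding sequence or its copy number. Many such differences act on the RNA of the same allele that carries them and appear in every tissue that uses the gene. The mouse reference assembly mm10, on which these reads were counted, is the genome of C57BL/6J. Reads from another background can therefore carry bases that the reference lacks. The E15.5 cortex holds apical progenitors, intermediate progenitors and newborn neurons of the deep and upper layers, together with interneurons that migrate in from the ventral telencephalon, Cajal-Retzius cells, vessels, microglia and blood.

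Named genes received between 11140202 and 38375929 counts in the C57BL/6 libraries and between 10383066 and 22317164 in the FVBxBALB/c libraries. Tbr1, a transcription factor of deep-layer cortical neurons, lay between 323 and 394 CPM (counts scaled to a common effective library size) in all 9 libraries. Several libraries stood apart. The summed level of 16 tested markers of the cortical hem and choroid plexus, tissues at the medial edge of the cortex, was 771 CPM in C57BL/6 replicate 3, 469.7 in C57BL/6 replicate 4 and 583 in FVBxBALB/c replicate 3, against 117 to 140.3 in the other 6 libraries. FVBxBALB/c replicate 3 was also the only library with almost no Y-linked RNA, at 1.23 CPM summed over 4 genes, where the others held 159.7 to 293 CPM. The file of C57BL/6 replicate 5 carries an E12.5 library name in its header, and it was used here as its label gives it. The groups separated along principal component 1 (44.7% of the variance), where the C57BL/6 libraries lay between -28.4 and -21.86 and the FVBxBALB/c libraries between 24.1 and 39.6.

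A large share of the transcriptome differed by a small amount. Of 14679 genes tested, 5002 (34.1%) were called at an adjusted p under 0.05, with 2490 (17%) higher and 2512 (17.1%) lower in FVBxBALB/c. Most of these differences were modest: the median absolute log2 difference of the called genes was 0.40, and 3759 of them (75.15%) differed by less than 1.5-fold. At least a 2-fold difference was reached by 379 called genes (2.58% of those tested), 162 higher (1.1%) and 217 lower (1.48%) in FVBxBALB/c. At least 4-fold was reached by 38 higher and 43 lower genes. For 3976 genes (27.1%) no C57BL/6 library overlapped any FVBxBALB/c library. Among the genes past 2-fold, 57 higher and 59 lower ones had symbols of predicted or unnamed genes. Adjusted p-values throughout come from edgeR's quasi-likelihood test with Benjamini-Hochberg adjustment over all tested genes, and differences are log2 of FVBxBALB/c over C57BL/6 with their standard error (SE).

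The direction of the small differences moved with the base composition of the transcripts. Over the 13642 tested genes with an annotated transcript, the log2 difference and transcript GC content had a Spearman rho of -0.59 and a Pearson r of -0.45. These are correlations across genes, which share the same 9 libraries and are not independent replicates. The genes were divided into 5 equal groups by GC content. In the group with the lowest GC content, up to 44.3%, 41.2% were called higher in FVBxBALB/c and 2.56% lower. In the group with the highest GC content, from 56.1%, 1.58% were called higher and 48.2% lower. The median log2 difference fell in steps from 0.23 in the lowest group through 0.13, 0.002 and -0.13 to -0.31 in the highest. Libraries of the same background also differed from each other: the correlation of a library's deviation with GC content ran from 0.199 to 0.521 in C57BL/6 and from -0.615 to -0.0992 in FVBxBALB/c, so the groups did not overlap.

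**Figure D1:**
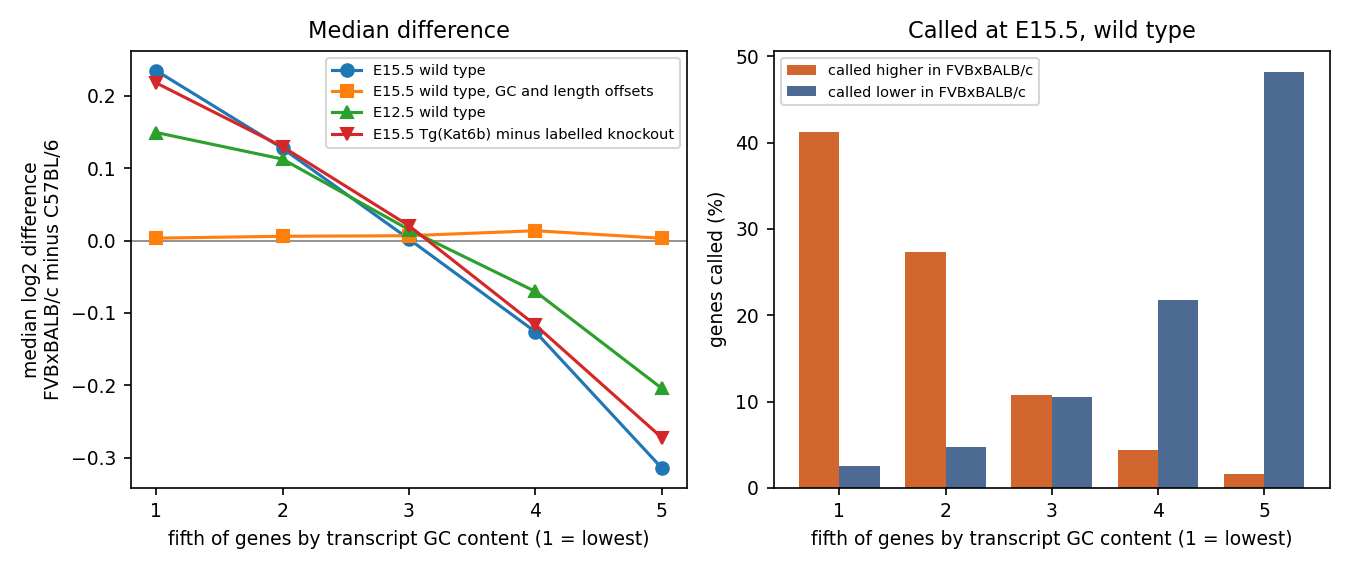
The plot of the strain difference by transcript GC content shows, for 5 equal groups of the tested genes, the median log2 difference (FVBxBALB/c over C57BL/6) at E15.5 and in the other comparisons, and the share of genes called in each direction. The median runs from 0.23 in the lowest group to -0.31 in the highest at E15.5. It lies near 0 in all 5 when GC content and length enter the fit, which follows from offsets fitted to these same counts.

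When each library was given an offset for transcript GC content and length, 3200 of the 13642 genes were called, 1808 higher and 1392 lower, against 4723 of the same genes without offsets. Only 2119 genes were called in the same direction by both fits, and 13 were called in opposite directions. Calls of genes past 2-fold depended far less on the offsets: of 286 such genes with a GC value, 257 were called in the same direction with them. Without offsets these large differences also moved with GC content. The share called at least 2-fold higher was 1.32% in the lowest GC group and 0.44% in the highest. The share called at least 2-fold lower was 0.77% in the lowest and 2.38% in the highest. GC content moves with the background and with the sequencing batch alike, and its part in the small differences cannot be told apart from that of the background. Counts from the fit with offsets are therefore given beside those of each gene list below.

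Genes already known to carry allelic differences among inbred strains were examined as a list. Of 38 genes on it, 19 were tested, and 7 were called higher and 2 lower in FVBxBALB/c (17% and 17.1% of all tested genes). The median of the 19 was 0.12, against -0.01 for all tested genes. With GC and length offsets the counts were 6 higher and 2 lower.

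Wdfy1, which encodes an endosomal adaptor with a lipid-binding FYVE domain, was among the clearest of them (RefSeq on GRCm38, chromosome 1, 79702262 to 79776143). In C57BL/6 it measured 17.7, 22.2, 21.7, 17.4 and 17.4 CPM, and in FVBxBALB/c 101, 120, 110 and 106 CPM. Every FVBxBALB/c library was several times above every C57BL/6 library. Means were 19.3 ± 2.45 (SD, n = 5) and 109 ± 7.93 (SD, n = 4), a 5.65-fold difference (log2 2.50, SE 0.09, adjusted p = 1.47e-10). The log2 difference was 2.36 with GC and length offsets.

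Nnt encodes the mitochondrial transhydrogenase that makes NADPH, and C57BL/6J mice carry an internal deletion of this gene (chromosome 13, 119335527 to 119409257). Its level was 28.1, 30.7, 28.6, 30.8 and 28.6 CPM in C57BL/6 and 56.2, 53.0, 56.8 and 48.9 CPM in FVBxBALB/c. The ranges within each group were narrow and did not overlap. The log2 difference was 0.87 (SE 0.07, adjusted p = 2.14e-06), or 1.83-fold. Exons were not counted separately, so these values do not show which part of the transcript differed.

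Gabra2 encodes the alpha2 subunit of the GABA-A receptor, and its RNA is known to be low in C57BL/6J because of an intronic deletion (chromosome 5, 70958392 to 71095849). It measured 21.0, 18.3, 17.3, 17.9 and 21.8 CPM in C57BL/6 and 40.5, 52.7, 28.1 and 47.7 CPM in FVBxBALB/c. The FVBxBALB/c libraries were all higher but spread widely, with replicate 3 closest to C57BL/6. The log2 difference was 1.13 (SE 0.15, adjusted p = 0.000161).

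Glo1, the detoxifying enzyme glyoxalase 1, whose copy number varies among inbred strains, rose from 40.5, 43.0, 48.5, 45.1 and 47.5 CPM in C57BL/6 to 87.8, 107, 67.7 and 64.4 CPM in FVBxBALB/c (log2 0.86, SE 0.13, adjusted p = 0.00032). Erdr1, a gene of the pseudoautosomal region, was uneven within both groups, at 0.71, 7.88, 0.488, 0.822 and 5.14 CPM in C57BL/6 and 14.4, 20.7, 48.0 and 26.8 CPM in FVBxBALB/c. Its log2 difference of 3.00 (SE 0.76) passed at an adjusted p of 0.0204, and without FVBxBALB/c replicate 3 it was 2.60 with an adjusted p of 0.0506. The 2 called members of the list that fell in FVBxBALB/c were Disc1, a scaffold protein of neuronal development (log2 -1.51, SE 0.31, adjusted p = 0.00192), and Pisd, a mitochondrial enzyme of phospholipid synthesis (log2 -0.34, SE 0.07, adjusted p = 0.00337). These 2 genes fall outside the rule by which genes were named and were chosen after their values were seen.

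**Figure D2:**
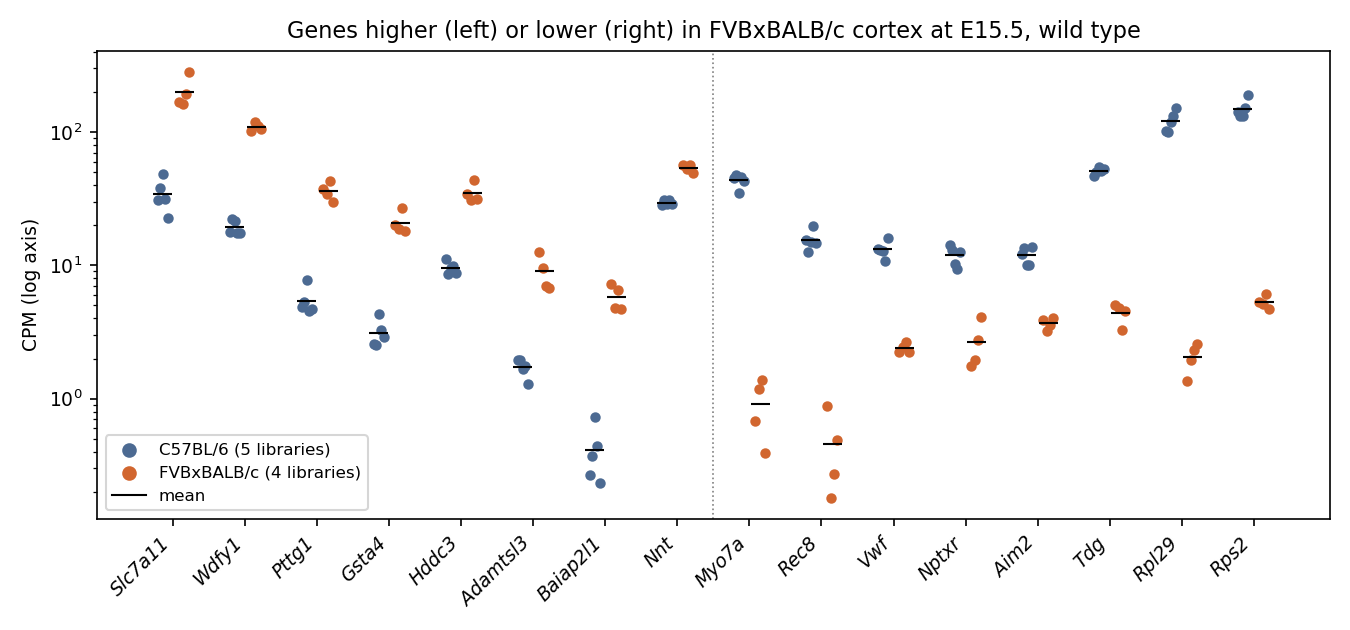
The plot of levels by library shows CPM on a log axis for genes with large differences, with 1 point for each of the 5 C57BL/6 and 4 FVBxBALB/c libraries and a bar at each group's mean. The groups are separated for the genes described in the text, such as Wdfy1 (17.4 to 22.2 CPM against 101 to 120) and Myo7a (35.01 to 47.7 CPM against 0.392 to 1.37). Genes with the largest differences were chosen among those without overlap.

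Among genes with established symbols, the largest increases included 2 genes that act in the use of cystine and glutathione. Slc7a11 encodes the cystine-glutamate exchanger that brings in cystine for glutathione synthesis (chromosome 3, 50364936 to 50499087). It measured 30.8, 37.9, 48.3, 31.5 and 22.7 CPM in C57BL/6 and 167, 161, 194 and 282 CPM in FVBxBALB/c. The lowest FVBxBALB/c library was far above the highest C57BL/6 library. The log2 difference was 2.55 (SE 0.24, adjusted p = 0.000118), a 5.87-fold difference.

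Gsta4 encodes a glutathione transferase that acts on products of lipid peroxidation (chromosome 9, 78191966 to 78209349). Its level was 2.57, 2.55, 4.35, 3.29 and 2.92 CPM in C57BL/6 and 19.9, 18.8, 26.8 and 18.1 CPM in FVBxBALB/c (log2 2.74, SE 0.17, adjusted p = 6.03e-08). The increase was 6.67-fold. Txnrd1, the cytosolic thioredoxin reductase, differed far less, with a log2 difference of 0.33 (SE 0.06, adjusted p = 0.000844). Over the whole list of 25 glutathione, redox and mitochondrial genes, 7 were higher and 4 lower, beside 17% and 17.1% of all genes. The median was 0.02, so the list as a group was divided. With offsets 8 were higher and 5 lower.

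Pttg1 encodes securin, the inhibitor of the protease that opens cohesin rings at anaphase (chromosome 11, 43420244 to 43427463). It measured 4.88, 5.26, 7.71, 4.55 and 4.73 CPM in C57BL/6 and 37.6, 34.4, 43.2 and 29.9 CPM in FVBxBALB/c (log2 2.74, SE 0.15, adjusted p = 2.56e-08). Baiap2l1, an actin and membrane-curvature adaptor, was close to the limit of detection in C57BL/6, at 0.266, 0.374, 0.732, 0.442 and 0.232 CPM, and reached 7.19, 4.80, 6.50 and 4.71 CPM in FVBxBALB/c. Its log2 difference was 3.83 (SE 0.30, adjusted p = 8.92e-07), the largest increase among genes with established symbols and a mean of at least 5 CPM in either group.

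Other named genes with large increases had diverse roles. Hddc3, a phosphohydrolase, rose from a mean of 9.59 ± 1.02 CPM (SD, n = 5) to 34.96 ± 5.86 CPM (SD, n = 4), a log2 difference of 1.88 (adjusted p = 6.66e-08). Adamtsl3, a protein of the extracellular matrix, had a log2 difference of 2.40, and Efcab7, a protein of the primary cilium, 1.96. The log2 difference was 1.79 for Pla2g4e, a cytosolic phospholipase, and 1.73 for Slc15a2, a transporter of small peptides. In each of these 5 genes the groups did not overlap, as the choice of genes required. Tcfl5, a basic helix-loop-helix factor of germ cells, stood differently: 3 FVBxBALB/c libraries lay at 2.72, 2.63 and 3.04 CPM, replicate 3 lay at 41.2, and C57BL/6 lay between 1.15 and 1.58. Its log2 difference of 3.18 (SE 1.02) had an adjusted p of 0.0469. This call was lost when any C57BL/6 library from 1 to 5 was left out (adjusted p between 0.0856 and 0.0969), and the mean in FVBxBALB/c rests on replicate 3. Without that library the log2 difference was 1.01 (adjusted p = 0.00458).

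Lpl encodes lipoprotein lipase, which frees fatty acids from circulating lipoproteins (chromosome 8, 68880555 to 68906932). It rose from 27.8, 19.7, 19.97, 24.5 and 31.6 CPM in C57BL/6 to 77.9, 54.2, 56.7 and 58.8 CPM in FVBxBALB/c (log2 1.32, SE 0.15, adjusted p = 6.02e-05). Sox11, a SOXC transcription factor of newborn neurons, was the most abundant gene with about a 2-fold difference (chromosome 12, 27334268 to 27342718). It measured 1708, 1660, 1211, 1928 and 1783 CPM in C57BL/6 and 3416, 3157, 3316 and 3447 CPM in FVBxBALB/c. Means were 1658 ± 269.7 (SD, n = 5) and 3334 ± 131 (SD, n = 4), a log2 difference of 1.01 (SE 0.10, adjusted p = 1.84e-05), and 0.91 with offsets.

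A pair of genes outside the naming rule had the most extreme patterns and were chosen after their values were seen. AI506816, a long noncoding RNA on chromosome 5 (23692261 to 23712667), had the smallest p of all genes. It lay between 1.65 and 1.86 CPM in C57BL/6 and between 49.0 and 58.2 CPM in FVBxBALB/c, a 29.9-fold difference (adjusted p = 1.84e-13). Sycp1, which encodes a core protein of the meiotic synaptonemal complex, had 0 counts in all 5 C57BL/6 libraries and 26, 107, 15 and 22 counts in the FVBxBALB/c libraries (chromosome 3, 102818499 to 102936100). Against a floor of 3 counts over the 5 C57BL/6 libraries together, 0.0259 CPM, its mean of 2.64 CPM was 101.8-fold higher. The spread of 1.03 to 4.85 CPM among the FVBxBALB/c libraries does not enter that ratio. That floor covers counting error only.

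The 14 largest decreases among genes with established symbols included 4 genes that share no stretch of read length with another annotated locus, and 2 of them fell to near 0. Myo7a encodes the unconventional myosin VIIA, a motor of sensory hair cells (chromosome 7, 98051054 to 98119522). It measured 44.998, 47.7, 35.01, 46.0 and 43.0 CPM in C57BL/6 and 0.680, 1.18, 1.37 and 0.392 CPM in FVBxBALB/c. The difference was 43.8-fold (log2 -5.45, SE 0.20, adjusted p = 1.4e-10). Rec8, a cohesin subunit best known from meiosis, fell from 15.6, 12.53, 15.04, 19.7 and 14.8 CPM to 0.874, 0.181, 0.274 and 0.490 CPM, a 38.7-fold difference (log2 -5.28, SE 0.28, adjusted p = 1.27e-08; chromosome 14, 55618002 to 55625395).

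Smaller but clear decreases were seen in genes of vessels, synapses and matrix. Vwf, the von Willebrand factor of endothelium, was 13.2, 13.1, 12.9, 10.7 and 15.9 CPM in C57BL/6 and 2.23, 2.45, 2.67 and 2.26 CPM in FVBxBALB/c (log2 -2.45, SE 0.15, adjusted p = 6.03e-08; chromosome 6, 125552948 to 125686679). Nptxr, the neuronal pentraxin receptor, fell from 14.3, 13.1, 10.2, 9.42 and 12.502 CPM to 1.75, 1.95, 2.74 and 4.12 CPM (log2 -2.21, SE 0.22, adjusted p = 1.07e-05). In both genes the highest FVBxBALB/c library stayed well under the lowest C57BL/6 library. Mmp9, a matrix metalloproteinase, had a log2 difference of -1.51 (SE 0.14, adjusted p = 3.97e-06). Ppp1r3e, a glycogen-targeting subunit of protein phosphatase 1, had one of -1.77 (SE 0.14, adjusted p = 1.23e-06).

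The other 10 of these 14 genes share such stretches with other loci, 9 of them over at least 20% of their transcript. Retrocopies arise when a processed messenger RNA is copied back into the genome, and their exonic sequence can differ from the parent gene at few bases. The following stretches of 90 bases of coding sequence and of the matching part of the retrocopy are shown because a lone base separates gene and copy there. They were read from GENCODE M21 transcripts on GRCm38, 5′ to 3′, and the capital marks the base at which the copies differ.
Tdg: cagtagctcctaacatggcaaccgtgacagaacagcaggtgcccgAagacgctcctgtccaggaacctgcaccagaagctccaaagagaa
Gm9855: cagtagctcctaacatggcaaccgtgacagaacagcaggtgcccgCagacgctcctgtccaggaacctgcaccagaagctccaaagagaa
Rpl29: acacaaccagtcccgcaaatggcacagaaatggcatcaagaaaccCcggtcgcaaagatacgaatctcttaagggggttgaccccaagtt
Gm8210: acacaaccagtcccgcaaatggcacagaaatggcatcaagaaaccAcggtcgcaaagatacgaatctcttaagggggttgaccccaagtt
Morf4l1: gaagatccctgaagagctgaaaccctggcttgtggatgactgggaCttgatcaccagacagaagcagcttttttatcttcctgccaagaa
Morf4l1-ps1: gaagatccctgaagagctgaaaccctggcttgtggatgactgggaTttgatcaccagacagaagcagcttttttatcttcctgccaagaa
Each gene differs from its copy at 1 of the 90 bases shown, so a read of 66 bp inside the stretch is by itself told apart by the capital base alone. Reads were paired, and the mate can lie outside the stretch, where other bases can differ. Whether FVBxBALB/c carries other bases at these places was not tested, since the files hold counts and no reads.

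Tdg encodes thymine DNA glycosylase, a base-excision repair enzyme that also acts in DNA demethylation (GENCODE M21, chromosome 10, 82629828 to 82650799), and Gm9855 is its processed pseudogene on the same chromosome (42054113 to 42055306). Tdg fell from 47.0, 50.5, 54.3, 50.6 and 52.7 CPM in C57BL/6 to 5.05, 4.76, 3.28 and 4.51 CPM in FVBxBALB/c (log2 -3.54, SE 0.11, adjusted p = 3.55e-11). Gm9855 moved the other way, from 15.1, 10.8, 13.1, 9.73 and 12.48 CPM to 129, 118, 116 and 118 CPM (log2 3.30, SE 0.10, adjusted p = 2.93e-11). The share of 66-base windows of Tdg found in Gm9855 was 23.2%. Their sum was 63.3 ± 2.95 CPM (SD, n = 5) in C57BL/6 and 124 ± 6.63 CPM (SD, n = 4) in FVBxBALB/c. The sum thus differed less than either locus did but was not equal between the groups.

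In other pairs the sum was closer to equal. Morf4l1, a chromodomain subunit of histone acetyltransferase and deacetylase complexes, fell from 35.05 ± 2.22 to 14.3 ± 0.540 CPM, and its retrocopy Morf4l1-ps1 rose from 71.4 ± 3.41 to 90.3 ± 6.39 CPM (SD, n = 5 and 4). The sums of both loci were 106.5 ± 3.03 and 104.6 ± 6.09 CPM. For Eno1, the glycolytic enzyme alpha-enolase, and Eno1b, the opposite moves from 98.5 to 55.8 CPM and from 25.6 to 61.9 CPM left sums of 124 ± 13.4 and 118 ± 18.4 CPM. Eif3j1 and Eif3j2, which encode a subunit of translation initiation factor 3, went from 17.8 to 5.78 CPM and from 39.7 to 77.3 CPM, with sums of 57.6 ± 7.95 and 83.0 ± 4.84 CPM. Eif3j1, Eif3j2, Eno1b, Morf4l1 and Morf4l1-ps1 were chosen after their values were seen.

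For Rpl29, Rps2 and Atp6v0c no tested copy gained as much as the gene lost, and for Hmgn2 no copy was tested as a pair. Rpl29, a protein of the large ribosomal subunit, had the largest decrease of the 14, from 102, 100.4, 119, 132 and 153 CPM to 1.36, 1.95, 2.33 and 2.55 CPM (log2 -5.88, SE 0.18, adjusted p = 1.4e-10). Its copy Gm8210 rose from 2.66 to 17.3 CPM, so the sum went from 124 to 19.3 CPM. Rps2, of the small subunit, fell from 149 ± 23.4 CPM (SD, n = 5) to 5.33 ± 0.575 CPM (SD, n = 4), a log2 difference of -4.80 (adjusted p = 1.48e-11). Hmgn2, a nucleosome-binding protein, fell from 197, 168, 175, 197 and 216 CPM to 27.1, 27.4, 19.9 and 15.98 CPM (log2 -3.07, SE 0.15, adjusted p = 2.85e-08). Atp6v0c, the proteolipid subunit of the vacuolar proton pump, fell from 71.1 to 5.56 CPM (log2 -3.67). Of the transcript windows of these genes, 59.3% in Rpl29, 66.5% in Rps2 and 60% in Hmgn2 occur at another annotated locus. How the authors treated reads that match several places is not given in the sources used here, and their levels are uncertain in both groups.

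**Figure D3:**
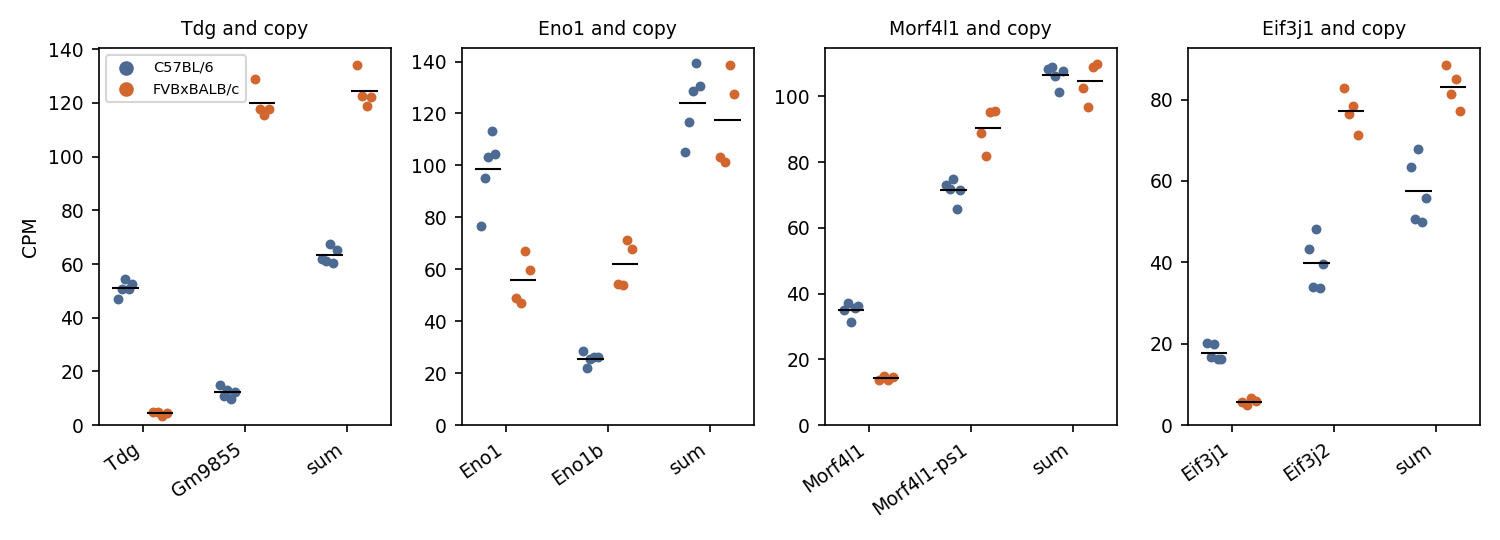
The plot of genes with near-identical copies shows CPM of a gene, of its copy and of their sum for 4 pairs, with 1 point for each of the 5 C57BL/6 and 4 FVBxBALB/c libraries and a bar at each group's mean. For Morf4l1 the gene is lower and the retrocopy higher in FVBxBALB/c with sums of 106.5 and 104.6 CPM, whereas for Tdg the sums are 63.3 and 124 CPM.

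Shared sequence and large decreases went together across the table. Among 10954 tested genes with no 66-base window at another non-overlapping locus, 1.02% were called at least 2-fold lower and 0.0822% at least 4-fold lower in FVBxBALB/c. Among 494 genes with at least 20% of windows shared, 7.69% were at least 2-fold lower, 3.44% at least 4-fold lower and 2.43% at least 2-fold higher. A total of 29 genes past 2-fold formed 46 such pairs with tested copies, and the copy was called in the opposite direction in 10 pairs and in the same direction in 17. A pair could be counted once from each side when both genes were past 2-fold. This held for Tdg and Tdg-ps, 9030025P20Rik and Gm3435, and Zfp991 and Zfp992. All of these were called in the same direction, so the 46 and the 17 exceed the numbers of distinct pairs. The whole family of ribosomal protein genes, many of which have numerous retrocopies, had 29 of 78 tested members called lower and 8 higher, beside 17.1% and 17% of all genes, with a median of -0.19. With GC and length offsets 23 were lower and 13 higher of 77, so the direction of the family did not turn. Rpl35a (log2 -3.44), Rpl21 (log2 -2.86) and Rpl3 (log2 -2.15) led it after Rpl29 and Rps2. The summed level of the 78 genes overlapped between the groups, at 7245 to 9578 CPM in C57BL/6 and 7293 to 9066 CPM in FVBxBALB/c.

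Markers of apical progenitors, the radial glia that line the ventricle and divide to make neurons, were more often higher than lower in FVBxBALB/c. Of 24 tested, 11 were called higher and 2 lower, with a median of 0.21, against 17% and 17.1% of all genes. Their summed level was 3985 to 4441 CPM in C57BL/6 and 4643 to 5118 CPM in FVBxBALB/c, with no overlap. With offsets 10 were higher and 2 lower, and without the 3 libraries rich in hem and choroid plexus markers the counts were 10 and 2. In bulk tissue, fewer cells of a type and less RNA per cell cannot be told apart.

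Fabp7, a lipid-binding protein of radial glia, measured 448, 479, 492, 489 and 528 CPM in C57BL/6 and 775, 698, 815 and 732 CPM in FVBxBALB/c (log2 0.63, SE 0.07, adjusted p = 1.52e-05). Its groups were well separated. Pax6, the transcription factor of cortical progenitor identity, rose from 80.6 ± 2.23 to 109 ± 9.45 CPM (log2 0.44, SE 0.07, adjusted p = 0.000296). Sox9, a progenitor and gliogenic factor, rose from 65.1 ± 8.00 to 95.4 ± 7.05 CPM (log2 0.56, SE 0.09, adjusted p = 0.000404). Hes5, an effector of Notch signalling, was among the 2 markers called lower, with a log2 difference of -0.49 (adjusted p = 0.000292), which was -0.05 (adjusted p = 0.68) with offsets. Without offsets 16 of the 24 tested markers lay above 0.

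Genes of the cell cycle showed a similar lean. Of 30 tested, 13 were called higher and 0 lower, where 17% of all genes were higher, and the median was 0.13. The changes were small: the log2 difference was 0.38 for the spindle checkpoint kinase Bub1, 0.34 for the mitotic regulator Birc5, 0.34 for thymidylate synthase Tyms and 0.28 for cyclin A2, Ccna2. With offsets 8 were higher and 3 lower, and Bub1 (0.14, adjusted p = 0.102) and Ccna2 (0.14, adjusted p = 0.0514) were no longer called. Without the 3 libraries rich in hem and choroid plexus markers 11 were higher and 0 lower. The summed levels of the 30 genes overlapped, at 3240 to 3807 CPM in C57BL/6 and 3754 to 4316 CPM in FVBxBALB/c.

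Intermediate progenitors, the transit cells of the subventricular zone, had 2 markers higher and 4 lower of 16 tested, beside 17% and 17.1% of all genes, and their summed levels overlapped. The transcription factors Insm1 (log2 -0.45, adjusted p = 0.000229) and Hes6 (log2 -0.36, adjusted p = 0.00253) and the Notch ligand Dll3 (log2 -0.61, adjusted p = 0.000578) fell. With offsets these 3 genes were at -0.02, 0.01 and -0.22, none of them called, and the list stood at 3 higher and 0 lower. The decreases of intermediate progenitor markers thus depended on whether GC content entered the fit, and the sign of Hes6 turned with it. Elavl4, an RNA-binding protein of neuronal differentiation, had a log2 difference of 0.42 (adjusted p = 0.000705), and of 0.15 (adjusted p = 0.0571) with offsets.

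Of 18 tested markers of deep-layer neurons, 5 were higher and 1 lower, where 17% and 17.1% of all genes were, with summed levels of 2340 to 3113 CPM in C57BL/6 and 3390 to 4283 CPM in FVBxBALB/c. Most of the difference in the sum came from Nfib, a nuclear factor I protein, which measured 863, 769, 559, 946 and 874 CPM in C57BL/6 and 1800, 1389, 1359 and 1423 CPM in FVBxBALB/c (log2 0.90, SE 0.14, adjusted p = 0.000629). Its relative Nfia rose by 0.76 (SE 0.14, adjusted p = 0.00228), and by 0.57 with offsets (adjusted p = 0.0543). The member that fell was Ppp1r1b, a protein phosphatase inhibitor, at -0.40 (SE 0.13, adjusted p = 0.0313), and at -0.01 (adjusted p = 0.975) with offsets. Without C57BL/6 replicate 1, 3, 4 or 5 or FVBxBALB/c replicate 1 or 2 its adjusted p lay between 0.0554 and 0.103. Without C57BL/6 replicate 5 or FVBxBALB/c replicate 2 the list had 3 higher and 0 lower. With offsets the counts for the list were 2 higher and 1 lower, so that fewer deep-layer calls than in the fit without offsets were made.

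Upper-layer markers were divided, with 5 higher and 4 lower of 18, beside 17% and 17.1% of all genes, and overlapping sums. With offsets 3 were higher and 2 lower. Rorb, a nuclear receptor of layer 4 neurons, rose from 20.5, 17.7, 18.2, 19.5 and 15.6 CPM to 35.7, 32.6, 31.8 and 37.5 CPM (log2 0.92, SE 0.09, adjusted p = 1.31e-05; 0.69 with offsets). Pou3f2, a POU factor of upper-layer neurons and their progenitors, rose by 0.73 (SE 0.08, adjusted p = 2.73e-05). Its relative Pou3f1 had a log2 difference of -0.55 (adjusted p = 0.00233), and of -0.06 (adjusted p = 0.707) with offsets. Cux2, a homeodomain factor of the upper layers, fell by 0.50 (SE 0.09, adjusted p = 0.000993) and stayed called with offsets at -0.30.

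Genes shared by most neurons had 3 members higher and 4 lower of 20, beside 17% and 17.1% of all genes. With offsets 6 were higher and 3 lower, so the balance depended on whether GC content entered the fit. The dendritic microtubule protein Map2 measured 1478, 1447, 1317, 1443 and 1377 CPM in C57BL/6 and 1973, 1827, 1703 and 1840 CPM in FVBxBALB/c (log2 0.38, SE 0.06, adjusted p = 0.00047). Snap25, a protein of vesicle fusion, also rose by 0.38 (SE 0.07, adjusted p = 0.000956). In contrast, both neurofilament genes among the named members fell, Ina by 0.57 (SE 0.08, adjusted p = 0.000161) and Nefl by 0.90 (SE 0.15, adjusted p = 0.000962). Map2, Snap25, Ina and Nefl were called in the same direction with offsets. Of 29 tested glutamate and GABA receptor genes, 3 were higher and 6 lower, beside 17% and 17.1% of all genes, with a median of 0.005. Without C57BL/6 replicate 1, 2 or 5 or FVBxBALB/c replicate 1 the count was 3 lower, and without the last also 1 higher. With offsets 2 of the receptor genes were higher and 3 lower. The NMDA receptor subunit Grin2b had a log2 difference of -1.26 (SE 0.24, adjusted p = 0.00226), and of -1.39 with offsets. The AMPA receptor subunit Gria2 rose by 0.57 (SE 0.16, adjusted p = 0.0168), and without FVBxBALB/c replicate 1 its adjusted p was 0.0526. The kainate receptor subunit Grik5 was at -0.44 (adjusted p = 0.000518), and at 0.01 (adjusted p = 0.943) with offsets.

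Cajal-Retzius cells, the early neurons of the marginal zone that secrete reelin, had 3 of 14 markers lower and 0 higher, beside 17.1% of all genes called lower, with a median of -0.39. Without FVBxBALB/c replicate 1 or 3 the count was 1 lower. Their summed level was 697 to 862 CPM in C57BL/6 and 512 to 693 CPM in FVBxBALB/c, so the groups did not overlap but nearly met. Reln, the gene of reelin itself, was 362, 265, 236, 279.6 and 365 CPM in C57BL/6 and 229, 207, 214 and 251 CPM in FVBxBALB/c, with overlap (log2 -0.42, SE 0.13, adjusted p = 0.0203). Leaving out FVBxBALB/c replicate 1, 2 or 3 gave adjusted p between 0.053 and 0.065, and the fit with offsets 0.0712. Lhx1, a LIM homeodomain factor, stood at -1.09 (SE 0.35, adjusted p = 0.0313), with an adjusted p of 0.0933 with offsets, 0.0618 without C57BL/6 replicate 3 and of 0.0841 to 0.0872 without FVBxBALB/c replicate 1, 3 or 4. Cacna2d2, a calcium channel subunit, was at -0.60 (adjusted p = 0.006), and at -0.39 (adjusted p = 0.069) with offsets. None of these 3 calls remained with offsets, where 1 of the 14 markers was called lower, Ebf1, a transcription factor not called without them and named after its value was seen.

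Markers of the ventral telencephalon and of interneurons were lower in 6 of 24 cases and higher in 0, beside 17.1% of all genes called lower, and their sums overlapped. Without FVBxBALB/c replicate 1 the counts were 4 lower and 4 higher and the median went from -0.06 to 0.04. Without C57BL/6 replicate 4 or 5 or FVBxBALB/c replicate 2 they were 4 lower and 0 higher. The vesicular GABA transporter Slc32a1 fell by 0.68 (SE 0.11, adjusted p = 0.000338) and the transcription factor Sp9 by 0.38 (SE 0.08, adjusted p = 0.00252). The homeodomain factor Dlx2 was at -0.39 (SE 0.10, adjusted p = 0.00843), and at -0.11 (adjusted p = 0.364) with offsets, where the list had 2 higher and 3 lower.

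**Figure D4:**
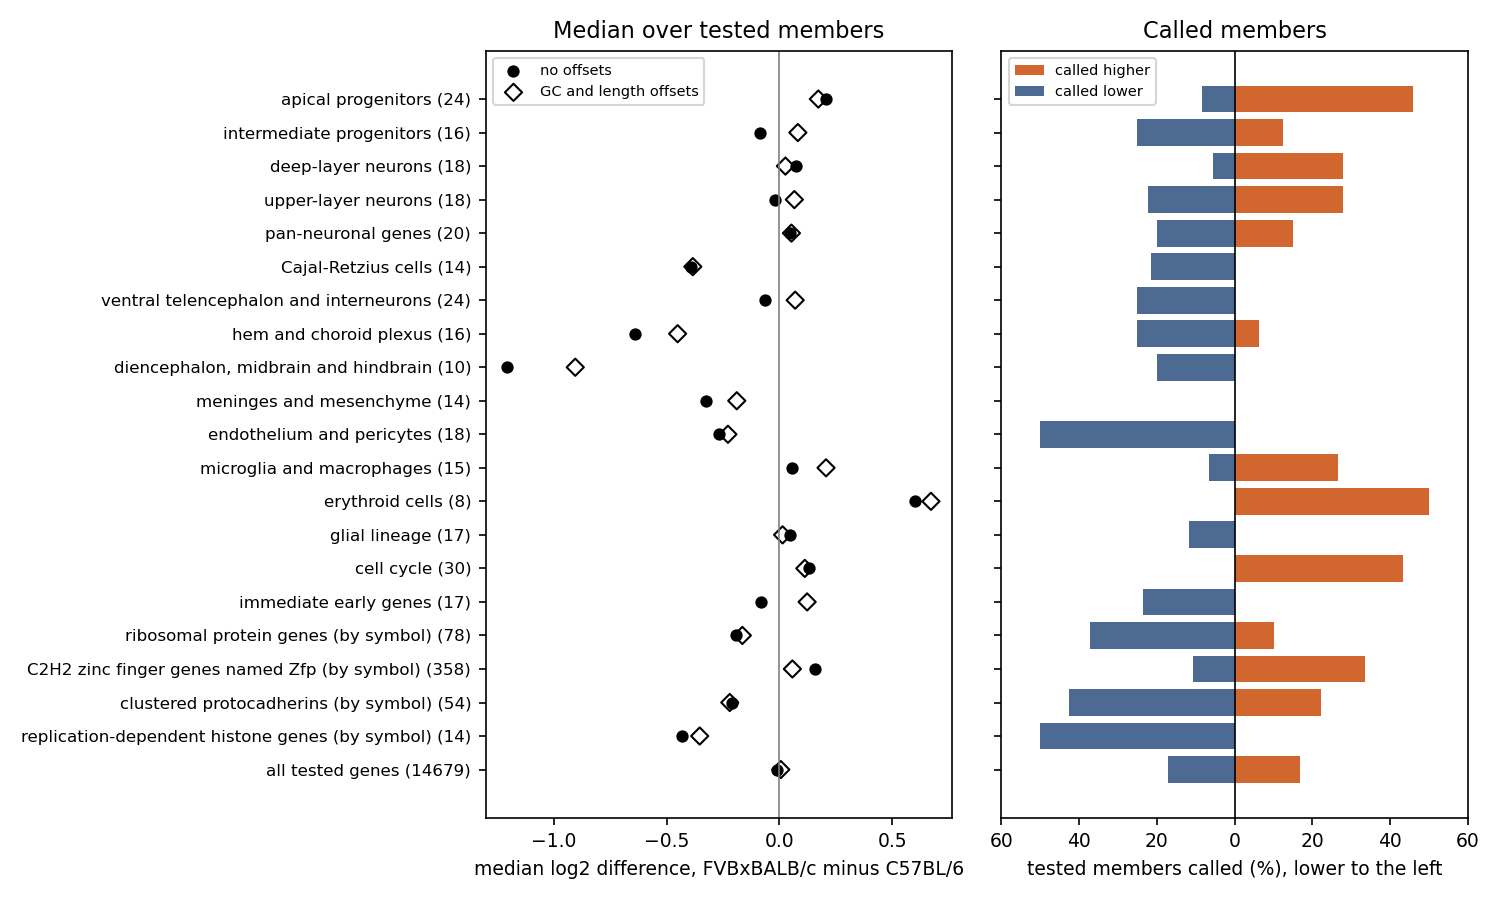
The plot of gene lists shows, for each list with its number of tested members, the median log2 difference (FVBxBALB/c over C57BL/6) without offsets (filled points) and with GC and length offsets (open diamonds), and beside it the share of members called higher or lower in percent. Apical progenitor markers have a median of 0.21 and endothelial markers one of -0.27 without offsets.

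Non-neural cells of the cortex differed in opposite directions. Endothelium and pericytes, the cells of brain vessels, had 9 of 18 markers lower and 0 higher, where 17.1% of all genes were lower, with a median of -0.27. Their summed level was 385 to 443 CPM in C57BL/6 and 297 to 346 CPM in FVBxBALB/c, with no overlap. The glucose transporter of the blood-brain barrier, Slc2a1, fell by 0.54 (SE 0.08, adjusted p = 0.000154) and the vascular cadherin Cdh5 by 0.63 (SE 0.12, adjusted p = 0.00103). Tie1, an endothelial receptor kinase, was lower by a log2 difference of -0.61 (SE 0.10, adjusted p = 0.000492), as was Eng, a TGF-beta co-receptor, at -0.63 (SE 0.12, adjusted p = 0.00158). With offsets 7 of 18 were lower and 0 higher, and these 4 genes were among them. Without the 3 libraries rich in hem and choroid plexus markers 5 were lower, and 6 without C57BL/6 replicate 3 or 5 or FVBxBALB/c replicate 1 or 4.

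Microglia, the resident macrophages of the brain, had 4 of 15 markers higher and 1 lower, beside 17% and 17.1% of all genes, with the same counts when offsets were used. Their summed level was 89.4 to 103 CPM in C57BL/6 and 106 to 124 CPM in FVBxBALB/c, which did not overlap. P2ry12, the purinergic receptor of microglia, measured 7.19, 6.66, 7.28, 5.25 and 6.87 CPM in C57BL/6 and 16.7, 12.6, 14.7 and 13.2 CPM in FVBxBALB/c (log2 1.10, SE 0.13, adjusted p = 3.61e-05). The fractalkine receptor Cx3cr1 rose by 0.64 (SE 0.11, adjusted p = 0.000566). Fcrls, another microglial gene, fell by 0.86 (SE 0.15, adjusted p = 0.000803), so the markers of this cell type did not move together.

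Erythroid genes, which report blood in the tissue, had 4 of 8 tested members higher and 0 lower, beside 17% and 17.1% of all genes, with a median of 0.60. With offsets 4 were higher and 0 lower. Hbb-bs, an adult beta-globin gene, was 57.1, 57.4, 77.0, 68.1 and 56.9 CPM in C57BL/6 and 217, 118, 247 and 188 CPM in FVBxBALB/c (log2 1.60, SE 0.19, adjusted p = 0.000276). Of its windows 64.8% occur in another globin gene, so the split among globins is uncertain. Hbb-y, an embryonic globin, rose by 1.10 (SE 0.23, adjusted p = 0.00413), and Slc4a1, the anion exchanger of red cells, by 1.00 (SE 0.25, adjusted p = 0.00765). Alas2, the first enzyme of heme synthesis in red cells, had an adjusted p of 0.0354, and of 0.0544 to 0.103 without C57BL/6 replicate 1 or 2 or FVBxBALB/c replicate 1, 3 or 4. The summed erythroid level overlapped, at 169.5 to 260.4 CPM in C57BL/6 and 247 to 484 CPM in FVBxBALB/c. Without the 3 libraries rich in hem and choroid plexus markers 2 members were called higher, and Slc4a1 had an adjusted p of 0.0613.

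Markers of tissue outside the cortex were uneven among libraries, and their medians were below 0. Each count in this paragraph stands beside 17.1% of all tested genes called lower and 17% called higher. Those of hem and choroid plexus had a median of -0.64, with 4 of 16 called lower and 1 higher. The count was 2 lower without FVBxBALB/c replicate 2. For the diencephalon, midbrain and hindbrain 2 of 10 markers were called lower and 0 higher, and the median was -1.21. Their count ran from 0 lower without FVBxBALB/c replicate 2, through 1 without C57BL/6 replicate 2 or 3 or FVBxBALB/c replicate 1 or 4, to 4 without C57BL/6 replicate 5. With offsets 1 of 16 and 0 of 10 were lower. The summed level of the second list was 75.8 to 342 CPM in C57BL/6 and 76.9 to 138 CPM in FVBxBALB/c. Markers of meninges and mesenchyme had 0 of 14 called, overlapping sums and a median of -0.33, which was 0.02 without C57BL/6 replicate 3. With offsets 0 of these 14 were called. Glial lineage genes had 2 of 17 lower and 0 higher, and 2 higher and 0 lower with offsets. The part of these tissues in the other results was not tested beyond the counts given without the 3 libraries.

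Immediate early genes, which respond within minutes to stimulation or handling, had 4 of 17 members lower and 0 higher, beside 17.1% of all genes called lower. Without C57BL/6 replicate 1, 4 or 5 or FVBxBALB/c replicate 2 the count was 2. Their summed level was 685 to 864 CPM in C57BL/6 and 563 to 651 CPM in FVBxBALB/c, without overlap. Jund, a subunit of the AP-1 transcription factor, fell from 313, 241, 277, 280.4 and 318 CPM to 136, 146, 186 and 170 CPM (log2 -0.84, SE 0.10, adjusted p = 5.39e-05). It is rich in GC, at 67.1% of its transcript, and was at -0.23 (adjusted p = 0.00697) with offsets. The phosphatase Dusp1 had a log2 difference of -0.40 (adjusted p = 0.00146). Ier5 (log2 -0.32, adjusted p = 0.0229) and the nuclear receptor Nr4a3 (log2 -0.51, adjusted p = 0.0391) each lost their call without any of several libraries. For Ier5 these were C57BL/6 replicates 1, 4 and 5 and FVBxBALB/c replicates 2 and 4, with adjusted p between 0.0534 and 0.0737. For Nr4a3 they were C57BL/6 replicates 1, 3, 4 and 5 and FVBxBALB/c replicates 2 and 3, with adjusted p between 0.0518 and 0.124. With offsets the list had 3 higher and 3 lower.

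Zinc finger genes of the Zfp family, most of them sequence-specific repressors or regulators, were more often higher in FVBxBALB/c. Of 358 tested, 120 were higher and 38 lower, with a median of 0.16, against 17% and 17.1% of all genes. Their median GC content was 44.55%, below the 50.22% of all tested genes, and with offsets 62 were higher and 27 lower of 354, with a median of 0.06. Zfp868 (log2 0.90, SE 0.07, adjusted p = 1.32e-06) and Zfp963 (log2 0.80, SE 0.08, adjusted p = 1.41e-05) rose, and both were called with offsets. Zfp503, a regulator of forebrain neurons, fell by 1.01 (SE 0.10, adjusted p = 6.61e-06), and was at -0.68 with offsets.

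Clustered protocadherins, cell-surface proteins whose alternative first exons give neurons distinct identities, were lower in 23 and higher in 12 of 54 tested genes, beside 17.1% and 17% of all genes, with 20 lower and 8 higher with offsets. Their summed level was 645 to 717 CPM in C57BL/6 and 505 to 569 CPM in FVBxBALB/c, without overlap. Pcdhga3 fell by 1.19 (SE 0.13, adjusted p = 1.61e-05), Pcdhga12 by 0.96 (SE 0.10, adjusted p = 1.72e-05), Pcdhgb6 by 0.93 (SE 0.11, adjusted p = 5.34e-05) and Pcdhgc4 by 0.82 (SE 0.11, adjusted p = 8.95e-05). In the same cluster Pcdhgb8 rose by 1.74 (SE 0.24, adjusted p = 0.000125). Genes of a cluster overlap and share their constant exons, so counts are uncertain in how they are split among them. Replication-dependent histone genes had 7 of 14 members lower and 0 higher, beside 17.1% of all genes lower, with 304.5 to 317 CPM in C57BL/6 and 202 to 257 CPM in FVBxBALB/c in all. Hist3h2ba fell by 0.60 (SE 0.08, adjusted p = 5.92e-05) and Hist1h4i by 1.16 (SE 0.22, adjusted p = 0.00146). With offsets 5 of the 12 histone genes that had a GC value were lower.

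Immune genes were examined as lists of antigen presentation and of interferon response. Among 12 tested genes of antigen presentation, 2 were higher and 1 lower, beside 17% and 17.1% of all genes. With offsets 4 were higher and 1 lower. The class I gene H2-K1 measured 3.55, 4.55, 5.66, 4.298 and 4.52 CPM in C57BL/6 and 5.34, 5.25, 18.3 and 18.5 CPM in FVBxBALB/c. The FVBxBALB/c libraries fell into a low pair, which overlapped C57BL/6, and a high pair (log2 1.37, SE 0.40, adjusted p = 0.0263). Without C57BL/6 replicate 1, 2, 4 or 5 or FVBxBALB/c replicate 3 or 4 the adjusted p was 0.0516 to 0.0672. B2m, the light chain of class I molecules, fell by 0.52 (SE 0.14, adjusted p = 0.0102). The interferon response list had 3 higher and 1 lower of 12, beside 17% and 17.1% of all genes, with a median of -0.002. Its summed level was 104 to 121 CPM in C57BL/6 and 124 to 139 CPM in FVBxBALB/c, without overlap. With offsets 3 were higher and 1 lower.

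Called genes were spread over the genome, at 27.09% of tested genes on chromosome 16 to 38.21% on chromosome 4 among the autosomes, and 30.71% on the X chromosome. Few runs of neighbouring genes differed by at least 2-fold in the same direction. A run needed at least 3 such called genes among 5 consecutive tested genes, and was cut at its first and last such gene. The share of such genes within a run therefore follows in part from this rule. On chromosome 1, from 173349547 to 173942866, all 3 tested genes of a run were lower. These were Aim2, a sensor of cytosolic DNA, and its relatives Mndal and Ifi203, interferon-inducible proteins of the PYHIN family. Aim2 fell from 12.2, 13.4, 10.1, 10.1 and 13.6 CPM to 3.88, 3.22, 3.56 and 4.02 CPM (log2 -1.71, SE 0.15, adjusted p = 3e-06), Ifi203 by 2.47 (SE 0.32, adjusted p = 7.57e-05) and Mndal by 4.42 (SE 0.57, adjusted p = 8.84e-05). On chromosome 6, from 134982001 to 135383173, 3 of 5 tested genes were higher. They were Emp1, an epithelial membrane protein (log2 1.40, SE 0.16, adjusted p = 3.02e-05), Hebp1, a heme-binding protein (log2 1.29, SE 0.22, adjusted p = 0.000565), and Apold1, an endothelial gene (log2 1.28, SE 0.28, adjusted p = 0.00494). Apold1 had an adjusted p of 0.0798 without the 3 libraries rich in hem and choroid plexus markers. A run of 3 genes without established names lay lower on chromosome 12.

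To place the strain difference beside maturation, genes that rose or fell at least 2-fold from E12.5 to E15.5 were taken from the labelled knockout and Tg(Kat6b) libraries, which are not in the wild-type comparison. At E15.5 the labelled knockout embryos were littermates of the wild-type C57BL/6 embryos. Of 1074 tested genes that rose with age, 261 were lower and 101 higher in FVBxBALB/c, with a median of -0.12. Of 548 that fell with age, 83 were lower and 60 higher, with a median of -0.08. The second list had smaller called shares in both directions than all genes (17.1% lower, 17% higher). Its counts were 58 lower and 61 higher without FVBxBALB/c replicate 4, and its median was -0.02 without C57BL/6 replicate 3. With offsets the medians were -0.05 for each list. In that fit 157 of 1021 genes that rose with age were lower and 88 higher. Of 521 that fell with age, 42 were lower and 34 higher with offsets. Among genes that fell with age, the replication factor Pclaf was lower in FVBxBALB/c (log2 -0.63, SE 0.06, adjusted p = 1.3e-05), and the kinetochore genes Cenph (log2 0.76, SE 0.09, adjusted p = 3.66e-05) and Nuf2 (log2 0.48, SE 0.07, adjusted p = 0.000153) were higher.

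The same strain contrast was available at E12.5 in 3 C57BL/6 and 4 FVBxBALB/c libraries of the dorsal telencephalon, which share no sample with E15.5. Of the C57BL/6 libraries, replicates 3 and 4 came from the same litter and replicate 1 from another, and no fit took litter into account. There 203 of 15849 genes were called (1.28%), 81 higher (0.511%) and 122 lower (0.77%). The biological coefficient of variation was 0.236 at E12.5 and 0.12 at E15.5. Of the 184 genes called at E12.5 that were tested at E15.5, 172 (93.48%) were called at E15.5 in the same direction and 0 in the opposite. In the other direction, 4986 of the 5002 E15.5 calls were tested at E12.5, of which 91.28% had the same sign and 172 (3.45%) were called in the same direction. Among the genes past 2-fold at E15.5, 346 of 365 had the same sign at E12.5 (94.79%) and 93 were called (25.48%), beside 75.27% with the same sign over all genes. Background and sequencing batch change together at E12.5 as well.

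Several of the largest differences were present at both ages. The log2 difference of Wdfy1 was 2.72 at E12.5 and 2.50 at E15.5, and that of Pttg1 2.71 and 2.74. Myo7a was at -4.18 and -5.45, and Rec8 at -4.83 and -5.28. Nnt was at 0.83 and 0.87, and Gabra2 at 1.27 and 1.13. Other differences were not called at E12.5: Vwf was at -1.13 (adjusted p = 0.157) and Rpl21 at -1.01 (adjusted p = 0.428). At E12.5 Rpl21 was uneven in FVBxBALB/c, at 6.61, 8.12, 27.1 and 41.8 CPM. In C57BL/6 it measured 36.1, 42.8 and 49.2 CPM at that age. For Sox11 the log2 difference at E12.5 was 0.74 (adjusted p = 0.0582).

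**Figure D5:**
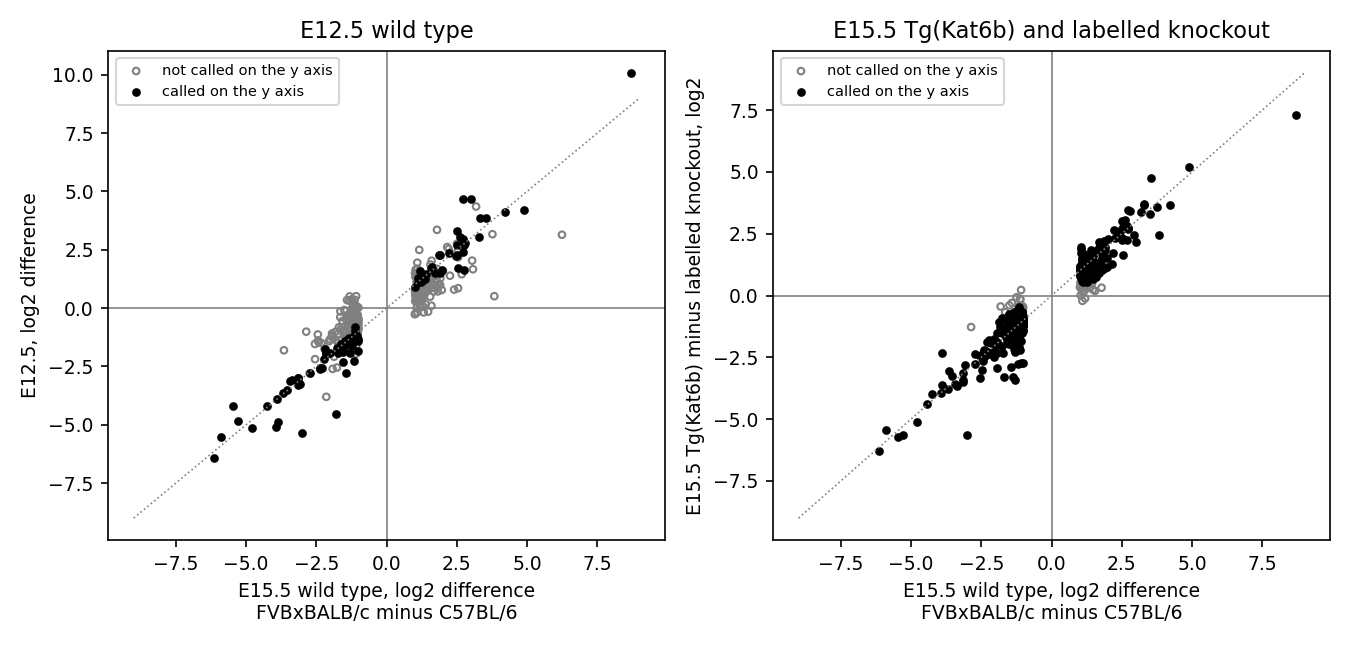
The plot of recurrence shows, for every gene called at least 2-fold at E15.5, its log2 difference at E15.5 against that at E12.5 in wild type and against that between Tg(Kat6b) and labelled knockout at E15.5, with filled points where the gene was also called on the y axis and a dotted line of equal differences. Most points lie on the same side of 0 on both axes, 346 of 365 at E12.5 and 360 of 363 in the other libraries. Over all genes the same sign was found for 75.27% at E12.5 and 82.42% in the other libraries.

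Whether the strain difference changed with age was tested as an interaction over all 16 wild-type libraries. No gene passed: 0 of 15941 were called by edgeR (0%) and 0 by limma-voom, with 824 at an unadjusted p under 0.05 and a smallest adjusted p of 0.0605. That smallest value belonged to Baiap2l1, whose level at E12.5 was 2.08 ± 0.932 CPM in C57BL/6 (SD, n = 3) and 2.94 ± 1.00 CPM in FVBxBALB/c (SD, n = 4), and whose difference of differences was 3.31 (SE 0.49). Lpl measured 31.5 ± 11.3 CPM in C57BL/6 and 27.6 ± 3.24 CPM in FVBxBALB/c at E12.5, with a difference of 1.504 (SE 0.28, adjusted p = 0.242). Slc7a8, an amino acid transporter, was lower in FVBxBALB/c at E15.5 (log2 -0.67, adjusted p = 0.000314) and at 5.21 and 7.71 CPM at E12.5, a difference of -1.23 (SE 0.20, adjusted p = 0.0749). Ifi203, whose mean level at E15.5 was under 5 CPM in both groups, had a difference of -3.81 (SE 0.61, adjusted p = 0.0749). Among called genes with at least 5 CPM in a group, the next 5 by interaction p had adjusted p of 0.381 for Ulk4, 0.63 for Gca and Pianp, 0.697 for Sptlc2 and 0.718 for Gaa.

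At E15.5 the same 2 backgrounds and batches also occur in 5 labelled knockout libraries on C57BL/6 and 4 Tg(Kat6b) libraries on FVBxBALB/c, which share no sample with the wild-type comparison. The labelled knockout embryos came from the same 5 litters as the wild-type C57BL/6 embryos, so these libraries are not independent of the wild-type ones. Genotype changes together with background there, and 6552 of 14809 genes were called (44.2%), 3425 higher (23.1%) and 3127 lower (21.1%). Of 4986 wild-type calls tested there, 3862 (77.46%) were called in the same direction and 8 in the opposite. Of 363 genes past 2-fold in wild type, 360 (99.17%) had the same sign and 306 (84.3%) were called, beside 82.42% with the same sign over all genes. Levels lay close to those of wild type: Wdfy1 at 20.4 and 102 CPM, Pttg1 at 5.64 and 36.2 CPM, Myo7a at 43.7 and 0.878 CPM, Tdg at 48.0 and 5.07 CPM and Lpl at 23.5 and 66.1 CPM in the libraries labelled knockout and Tg(Kat6b). Kat6b RNA measured 168 CPM (147.5 to 184) in the libraries labelled knockout, overlapping the wild-type libraries, and 638 CPM (571 to 747) in Tg(Kat6b). The gene-level count thus does not mark the knockout label, and a count over the whole gene does not show whether part of it was deleted.

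Kat6b itself, the histone acetyltransferase whose loss and gain the study addressed (chromosome 14, 21499216 to 21672478), was not called between the backgrounds. It measured 185, 171, 149.7, 189 and 154 CPM in C57BL/6 and 223, 186, 151 and 164 CPM in FVBxBALB/c, with overlap. The log2 difference was 0.09 (95% interval -0.14 to 0.32, adjusted p = 0.534). Without FVBxBALB/c replicate 1 it was -0.02. Of the 14 MYST acetyltransferases and partner proteins tested, 0 were called in either direction, with a median of 0.04, where 34.1% of all genes were called. With offsets 0 were called as well. At an adjusted p above the threshold these values do not show that the backgrounds have equal levels.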

How the data were processed

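RNA was measured in 9 wild-type cortex libraries at E15.5, 1 embryo each. Per the labels' protocols, total RNA was taken with an RNeasy kit, libraries were made with a TruSeq RNA kit, and paired reads of 66 bp came from a NextSeq500. The deposited files, 1 for each library, hold raw counts of reads by gene without normalization; per the submitters' processing notes, bcl2fastq and featureCounts were used on mm10. Of the aligner, annotation, strand setting and treatment of reads with several matches nothing is given in the sources used here. A file has 27179 rows. The 848 rows without a gene, 0.347% to 0.493% of counts, were left out, and 25275 of the 26331 named genes were placed on GRCm38 through RefSeq.

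Counts were filtered with filterByExpr (minimum count 10, minimum total 15), scaled by TMM and tested with edgeR 4.0.16 (R 4.3.3) by a robust quasi-likelihood F test with 7 residual degrees of freedom, 2-sided, over these 9 libraries only. Genes were called at a Benjamini-Hochberg adjusted p under 0.05. The SE is the absolute log2 difference divided by the square root of F, and CPM uses the library total times its TMM factor. GC content, length and shared 66-base windows came from GENCODE M21 transcripts; 92.94% of tested genes had a value. P-values measure the spread between embryos within each group, as does the interval of a log2 difference, which comes from the same fit; the floor of a count covers counting error only. The labels do not say that equal replicate numbers mark paired libraries, and no block was used. The test was checked on simulated data.

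Genes named are called genes without overlap between groups and with at least 5 CPM in a group (the 14 with the largest log2 difference each way, without unnamed symbols), up to 4 called members of each list, the 8 such genes with the smallest interaction p, runs by position, the 5 most abundant called genes, and Kat6b. The comparison and the lists were chosen with earlier results of these data known. Alternatives included DESeq2 1.42.0, limma-voom (limma 3.58.1), other scalings and filters, other sets of libraries, a block, a Y-linked covariate, thinned counts, a minimum of 1.5-fold and each library left out. The GC and length offsets, the restriction to genes without shared windows and the omission of 3 libraries were chosen after seeing the data.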

Additional observations from a re-analysis of the deposited data

Results flagged for a closer look

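In each group of 4 or 5 libraries, a library was singled out when its gap to the nearest other library was large beside the range of the group (Dixon's test at 95%). This was done for 286 sets of values, and 20 stood out. Chance alone gives about 1 in 20 such sets. Values are CPM with the nearest other library of the group after each.

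FVBxBALB/c replicate 3 stood out for the summed hem and choroid plexus markers (583, next 133), for the germ-cell factor Tcfl5 (41.2, next 3.04), for Slc7a8 (15.1, next 12.3), for B2m (14.5, next 11.0) and for a low Cux2 (57.9, next 67.2). C57BL/6 replicate 3 stood out for the summed meninges and mesenchyme markers (248, next 121) and for Pttg1 (7.71, next 5.26), B2m (21.9, next 16.4), Snap25 (143, next 124) and Emp1 (10.3, next 6.90). It was also low for Bub1 (48.6, next 55.8).

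FVBxBALB/c replicate 1 was high for Gm9855 (129, next 118) and Nfib (1800, next 1423), and low for Nefl (24.9, next 32.5), Dlx2 (87.4, next 124), Mmp9 (5.53, next 7.85) and Hbb-y (19.4, next 33.5). Lhx1 was high in FVBxBALB/c replicate 2 (5.34, next 3.11). In C57BL/6, Ccna2 was low in replicate 2 (139.6, next 150.4) and Rpl21 in replicate 1 (32.04, next 44.7). The group means in the report include all of these libraries.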

How the results depend on the processing

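At E15.5 the number of called genes stayed within 1.5 times of 5002 under other scalings, filters, tests and library sets, except where given here. With all 16 wild-type libraries in 1 fit it was 3253, with 1520 lower. Against a minimum of 1.5-fold, 212 genes passed, 103 higher and 109 lower, of which 84 higher and 95 lower differed by at least 2-fold. With GC and length offsets it was 3200, with 1392 lower, and 104 higher and 133 lower genes were past 2-fold. Among genes without shared windows, 79 higher and 100 lower were past 2-fold, where fewer genes were tested. Without a filter on low counts, 257 genes were at least 2-fold higher. Leaving out 1 library at a time gave 3842 to 5262 called genes, 1942 to 2625 higher and 1900 to 2637 lower. Upper-quartile scaling gave 45.5% of calls as higher and moved the median of all genes to -0.03.

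At E12.5, leaving out 1 library gave 62 to 1266 called genes, 22 to 546 higher and 40 to 720 lower. It was 1266 without FVBxBALB/c replicate 4, 372 without C57BL/6 replicate 1, and 62 to 110 without each of the other 5. Without C57BL/6 replicate 1 the remaining C57BL/6 libraries were littermates. The interaction gave 0 to 6 calls: 6 without E12.5 FVBxBALB/c replicate 4, 2 without E12.5 C57BL/6 replicate 3, and 1 each without E15.5 C57BL/6 replicate 2 or 3. With the replicate number as a block, E15.5 gave 6172 calls (3055 higher, 3117 lower), of which 4869 were also called in the same direction without it, E12.5 gave 20 (5 higher, 15 lower) and the interaction 0 (929 at an unadjusted p under 0.05). With it 6 of 16 hem and choroid plexus markers and 6 of 10 of the diencephalon, midbrain and hindbrain were lower. The labels give no shared litter for equal numbers. Correlations of deviations for numbers 1 to 4 were 0.207, 0.469, 0.325 and -0.0456, and libraries 1 to 3 correlated best with their own number, a hint from the data only.

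Of 124 called genes recomputed, 55 kept call and direction in every setting and 91 in every setting but the 1.5-fold minimum. Hes6 (0.0119) and Grik5 (0.0064) turned sign with offsets. Kat6b, which was not called, ranged from -0.0184 (without FVBxBALB/c replicate 1) to 0.173 with 1 library left out. The cause of these shifts was not tested. Calls of genes near 1 CPM rest on few reads per library.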
